A study of Mus musculus with 2 samples.

Results

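In liver immune cells of TG and WT mice, 10 genes known from macrophages were followed. They include the complement C1q chains C1qa, C1qb and C1qc, the Kupffer cell receptors Clec4f, Vsig4 and Timd4, and the secreted factor Cd5l. The others are the macrophage receptors Adgre1 and Csf1r and the apolipoprotein gene Apoe. All 10 were chosen by name, with earlier results of these data known. The filtered count table lists 13528 genes and 9 of the 10, all but Clec4f. Clec4f is listed in the library file that holds the WT cells and not in the file that holds the TG cells, so it could be read in WT cells alone. Immune cells carrying CD45 were isolated from liver, and the RNA molecules of each cell were counted with unique molecular identifiers (UMIs) together with 49 surface proteins. TG mice are of the dnTGFβRII line on C57BL/6, in which the mouse CD4 promoter drives a human TGF-β receptor that blocks signalling, and WT mice are C57BL/6. The labels give an age of 10 weeks for both, the study's methods a younger one, and how many mice were pooled is not given. Each of the 2 libraries mixed cells of 2 genotypes. TG cells were captured with cells of IFN-γ ARE-Del-/- mice, and WT cells with cells of P40-/-IL-2Ra-/- mice. With 1 library per genotype no test was possible. Wherever TG and WT cells differed, the effects of genotype and of the capture cannot be told apart.

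The filtered table held 4647 TG cells with 18498477 UMIs and 7282 WT cells with 22216379 UMIs, with medians of 3298 and 2654 UMIs per cell. The library files of the same captures held 10026 and 24111 cells, of which 5379 and 16829 had no genotype name. The libraries shared 267 cell numbers, and 36 of these stood for a named TG cell and a named WT cell. Levels are given as CPM, counts per 1000000 UMIs of the summed cells, with 95% intervals in brackets. These intervals cover counting error only, and leave out the spread between cells, mice and captures. A level can be compared for 1 gene between cells, but not between genes, since how well the transcripts of each gene were captured was not measured.

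Kupffer cells are the resident macrophages of the liver sinusoids. They take up particles, dying cells and lipoproteins from the blood, and they depend on signals through the CSF1 receptor. C1q is built from 3 chains encoded by neighbouring genes and starts the classical complement pathway, and macrophages and dendritic cells are its main source. Clec4f, a lectin receptor, is the member most closely tied to mouse Kupffer cells, whereas Vsig4 (a complement receptor of the immunoglobulin family), Timd4 (a receptor for phosphatidylserine on dying cells) and Cd5l (a secreted scavenger protein) are also made by other resident macrophages. Adgre1 encodes the F4/80 antigen, and Csf1r is also expressed by monocytes.

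The 150 bases before the RefSeq start are shown for 5 members that were high together in the cells described next, 2 of them C1q chains and 3 of them Kupffer cell genes. The build is GRCm38.p6, each sequence is read 5′ to 3′ on the strand of its gene, and capitals mark the hexamer GAGGAA or its reverse complement TTCCTC, a core bound by PU.1, the factor that macrophages need. The stretches are chr4:136892915-136893064 (minus) for C1qc, chr4:136886201-136886350 (minus) for C1qb, chrX:96293439-96293588 (minus) for Vsig4, chr11:46810649-46810798 (plus) for Timd4 and chr3:87357731-87357880 (plus) for Cd5l.
C1qc: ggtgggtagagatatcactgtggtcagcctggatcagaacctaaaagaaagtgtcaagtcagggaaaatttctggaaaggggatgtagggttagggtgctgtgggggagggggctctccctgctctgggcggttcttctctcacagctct
C1qb: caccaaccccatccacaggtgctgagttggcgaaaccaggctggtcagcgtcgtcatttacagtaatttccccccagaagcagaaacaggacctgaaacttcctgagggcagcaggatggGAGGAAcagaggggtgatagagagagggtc
Vsig4: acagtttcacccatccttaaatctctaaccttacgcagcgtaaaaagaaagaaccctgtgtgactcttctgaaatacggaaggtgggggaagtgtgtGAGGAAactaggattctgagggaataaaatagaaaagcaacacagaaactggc
Timd4: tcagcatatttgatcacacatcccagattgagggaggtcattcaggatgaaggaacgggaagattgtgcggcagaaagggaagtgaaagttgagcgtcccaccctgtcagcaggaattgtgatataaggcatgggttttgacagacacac
Cd5l: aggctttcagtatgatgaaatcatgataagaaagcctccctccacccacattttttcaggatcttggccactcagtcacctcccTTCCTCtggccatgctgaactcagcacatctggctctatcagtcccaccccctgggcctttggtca
RefSeq and GENCODE place the starts of C1qb and C1qc differently, and the C1qc stretch lies inside the GENCODE gene, so it is upstream of the RefSeq start alone. The hexamer was found on either strand in 3 of these 5 stretches, 30 bases before the start in C1qb, 53 bases in Vsig4 and 66 bases in Cd5l. The 7 members with an entry have 9 stretches, since Apoe has 3 starts, and 4 of the 9 held it (the fourth being 1 of the 3 of Apoe), against 14.5% of all 32817 promoter stretches of the same length (4749). A match is a description of the letters and not evidence of binding.

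The genes lie on 8 chromosomes of GRCm38, and the GENCODE annotation lists all 10 as protein coding. C1qb (chr4:136880129-136886187), C1qc (chr4:136889804-136893065) and C1qa (chr4:136895917-136898803) stand side by side on the minus strand, within 18675 bases. Cd5l lies at chr3:87357881-87371073 (plus strand), Clec4f at chr6:83644542-83656187 (minus), Apoe at chr7:19696109-19699188 (minus), Timd4 at chr11:46810800-46844332 (plus), Adgre1 at chr17:57358691-57483527 (plus), Csf1r at chr18:61100598-61132149 (plus) and Vsig4 at chrX:96247203-96293438 (minus).

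The deposited names were checked against markers before the members were read. The class named Macro covers 3 clusters with different genes, so members were compared by cluster. Cluster 27 (23 WT cells, no TG cell) was led by Cxcl13, Tcim, Ednrb, Pf4, Ltbp1, Ptgis, Vsig4, Fcna, Tgfb2 and C4b. Its Kupffer and macrophage markers, a list that holds 9 of the members, had a UMI for 13 of the 14 genes in the table and summed to 13416 CPM, against 1318 CPM in the WT cells and 1424 CPM in the TG cells of cluster 15. Among the markers that are no members, Cd68 had 95 UMIs, the scavenger receptor Marco 25, Mertk 23, Fcgr1 9 and Cd163 none. Cluster 15 (89 TG cells, 158 WT cells) was led by Hpgd, Cxcl9, Cd300e, Adgre4, Ear2, Lilra5, Clec4a1, Ccl17, F13a1 and Skint3. Its classical monocyte markers summed to 7466 CPM in TG and 9283 CPM in WT cells, against 41458 CPM in cluster 27, nearly all Lyz2 and Fn1. Its non-classical monocyte markers summed to 2887 and 2191 CPM, against 418 CPM in cluster 27. Sums of different lists are not ranked within a cluster, since levels cannot be compared between genes. Cluster 22 (20 TG cells, 80 WT cells) was led by Xcr1, Tlr11, Gpr141b, Rab7b, Sept3, Tlr3, Anpep, Ifi205, Gatm and Snx22, with Xcr1 and Tlr3 known from type 1 conventional dendritic cells, and its macrophage markers summed to 259 CPM in TG and 322 CPM in WT cells. The class named Mono is cluster 5 (204 TG cells, 258 WT cells). It was led by Cxcr1, Il1b, Csf3r, Steap4, Sycp2, Clec4d, Gm5483, Arg2, Kcnmb2 and Hcar2. Its neutrophil markers summed to 65221 CPM in TG and 45488 CPM in WT cells, against 470 and 974 CPM in cluster 15. Its classical monocyte markers summed to 4863 and 3898 CPM, below those of cluster 15. The name Mono is therefore not borne out by its leading genes, and the cells are called cluster 5 here.

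The members were concentrated in the 23 cells of cluster 27. These cells were 0.316% [0.200 to 0.474] of the WT cells and held 0.700% of the WT UMIs, yet they held 89.6% [87.9 to 91.1] of all C1q UMIs of WT cells (1301 of 1452). They held 96.8% of the Vsig4 UMIs (60 of 62), 86.9% of the Timd4 UMIs (93 of 107), 90.9% of the Cd5l UMIs (100 of 110), 69.9% of the Adgre1 UMIs (158 of 226) and 64.2% of the Apoe UMIs (2736 of 4261). Csf1r was spread more widely, with 17.5% there (139 of 793), and the 1 Clec4f UMI of WT cells lay outside the cluster. Without the 3 cells with the most C1q UMIs the C1q share was 85.3%. Clusters were built by the authors from the same counts, so these shares describe cluster 27 and test nothing.

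**Figure D1:**
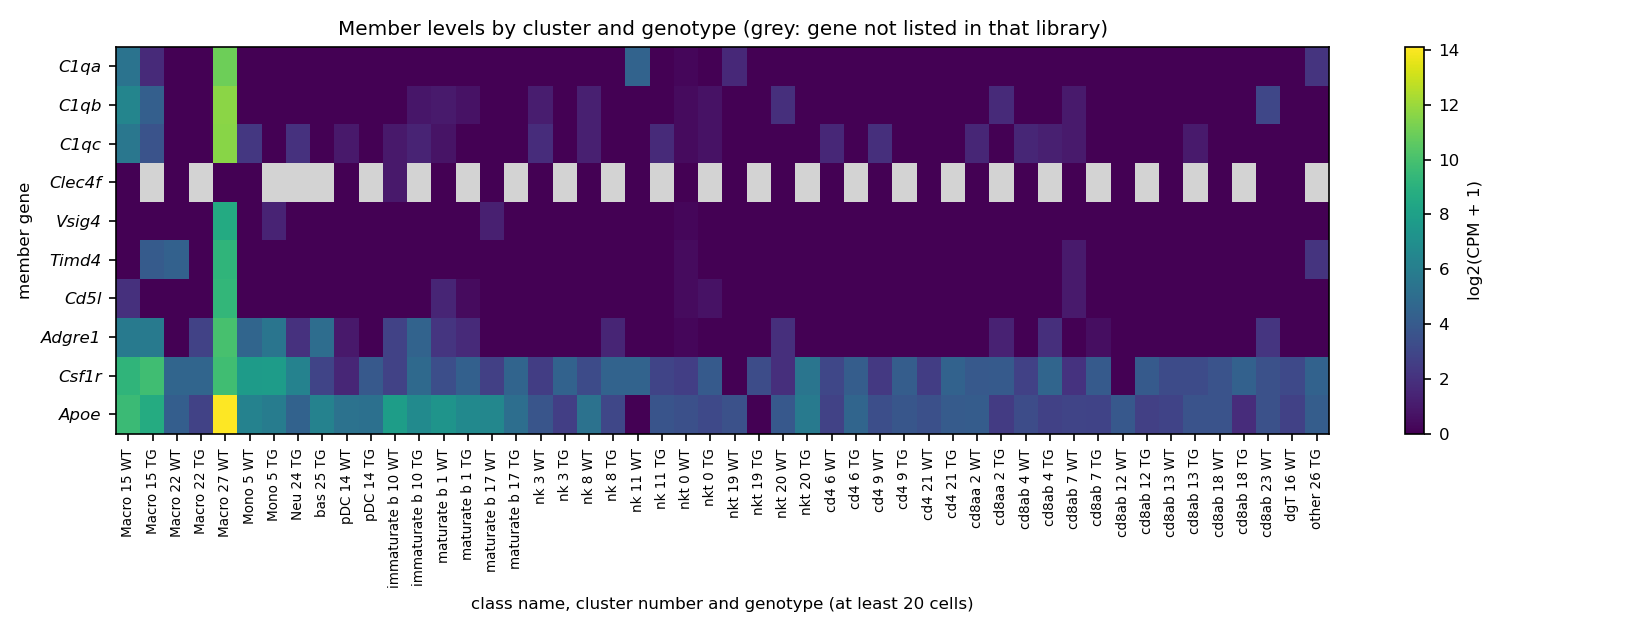
Level of each member, as log2(CPM + 1) in colour, in every cluster and genotype with at least 20 cells, with the genes in rows and the deposited class name, cluster number and genotype in columns. Cluster 27 is the bright column for 9 of the 10 genes, with Apoe at 17605 CPM, while Csf1r is also bright in cluster 15 (861 CPM in TG, 596 CPM in WT cells), and grey marks Clec4f in the library that does not list it.

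Of the C1q chains, C1qa reached 2046 CPM [1827 to 2284] in cluster 27 (318 UMIs in 19 of 23 cells, from 0 to 42 UMIs a cell with a median of 11). C1qb reached 3249 CPM [2972 to 3546] (505 UMIs in 20 cells, median 19, highest 56). C1qc reached 3076 CPM [2806 to 3364] (478 UMIs in 22 cells, median 20, highest 55). All 3 chains were found together in 17 of the 23 cells, and no cell of the cluster lacked C1q altogether, with 2 to 143 C1q UMIs and a median of 54. The mix of the chains was 24.4% C1qa, 38.8% C1qb and 36.7% C1qc by UMIs.

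The Kupffer cell receptors were less even. Timd4 reached 598 CPM [483 to 733] (93 UMIs in 18 cells, 0 to 14 a cell, median 2), and Cd5l 643 CPM [524 to 783] (100 UMIs in 17 cells, 0 to 13 a cell, median 3). Vsig4 stood at 386 CPM [295 to 497], but its 60 UMIs lay in 8 of the 23 cells, with up to 19 in a cell and a median of 0. The 8 cells with Vsig4 held 3396 CPM of C1qb, 3047 CPM of C1qc, 779 CPM of Timd4 and 470 CPM of Cd5l, and the 15 cells without it held 3115, 3102, 433 and 803 CPM of the same genes. The cells with Vsig4 were deeper (median 8296 against 5167 UMIs) and had the lower mitochondrial share (median 5.06% against 8.59%), and whether depth accounts for the missing Vsig4 was not tested. Clec4f had 0 UMIs in all 23 cells, which allows a level of up to 19.3 CPM. Clec1b, a lectin receptor, and the folate receptor gene Folr2, both known from Kupffer cells as well, were also at 0 in the 23 cells.

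Adgre1 reached 1017 CPM [864 to 1188] (158 UMIs in 19 cells, 0 to 17 a cell, median 5) and Csf1r 894 CPM [752 to 1056] (139 UMIs in 22 cells, 0 to 16 a cell, median 4). Apoe, which carries lipids and is a major transcript of macrophages, was found in all 23 cells, at 17605 CPM [16952 to 18277], with 9 to 310 UMIs a cell and a median of 115.

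Cells of the cluster differed widely in depth, from 1528 to 15901 UMIs (median 7295). The 11 cells above the median depth held 52 to 143 C1q UMIs and had a median mitochondrial share of 4.73%. The other 12 held 2 to 83 C1q UMIs (median 9), and their median mitochondrial share was 11.6%, up to 22.5%. As a share of the cell's own UMIs, C1qa was higher in the deeper cells (median 2168 CPM) than in the shallower ones (606 CPM), whereas Apoe was nearly the same (15616 and 15673 CPM). T lineage genes summed to 399 CPM in the cluster, and 7 of its cells carried at least 2 UMIs of B or T lineage genes. Doublets were not called, and the part of such cells in the members' values was not tested. Leaving these cells out kept 8 members at 2-fold or more above cluster 15. The clusters were built from these counts, so that number cannot show the part of doublets.

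**Figure D2:**
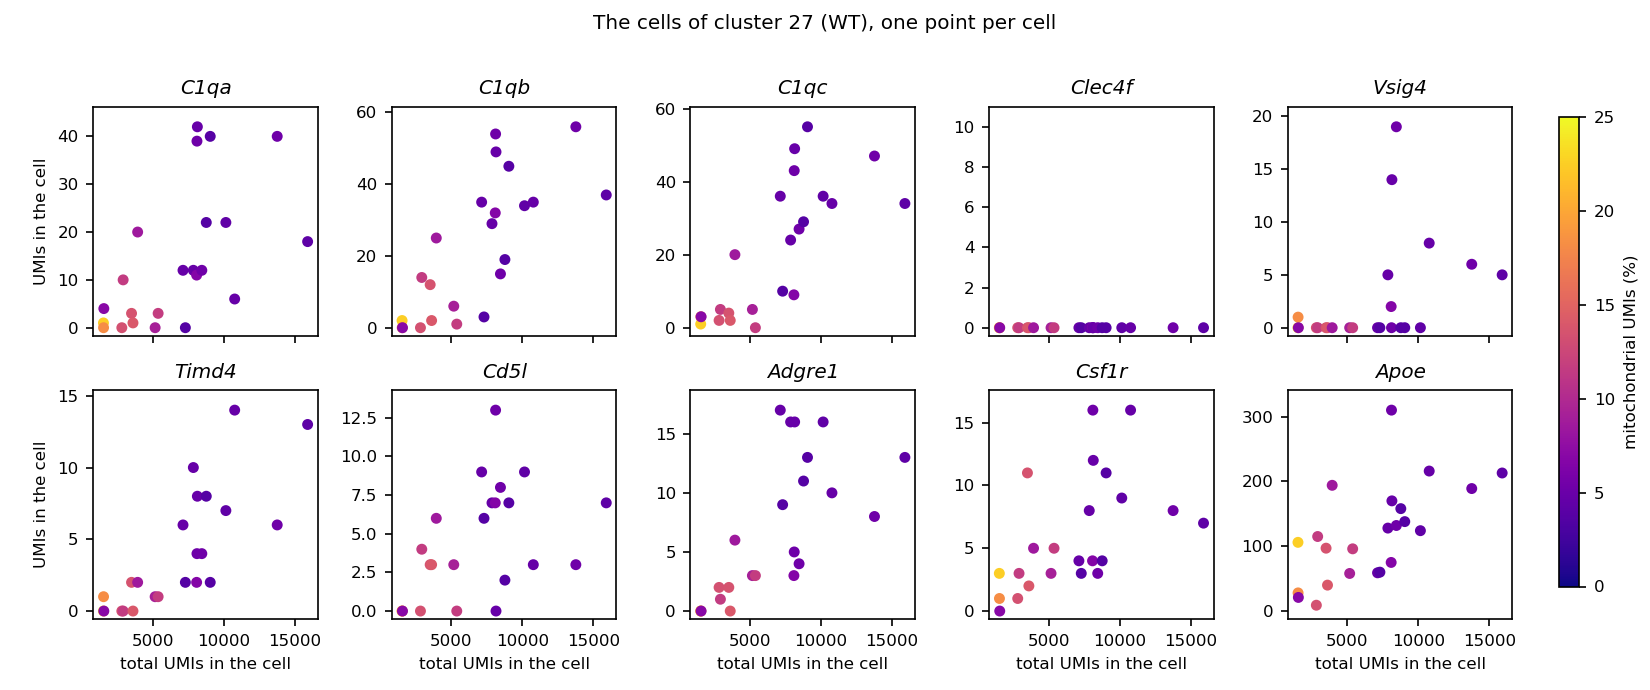
UMIs of each member (vertical axis, 1 panel a gene) against the total UMIs of the cell (horizontal axis) for the 23 WT cells of cluster 27, coloured by the percent of mitochondrial UMIs. Apoe is found in every cell and Clec4f in none, Vsig4 lies in 8 cells with up to 19 UMIs, and the cells with the highest mitochondrial share are among the shallowest.

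Compared with the 158 WT cells of cluster 15, 8 of the 9 members with enough counts were at least 2-fold higher in cluster 27. Of the 7807 genes with at least 10 UMIs over both profiles 9.39% were 2-fold or more higher and 25.4% lower, but nothing is read from the members' count, since the clusters were built from these counts and Vsig4, Timd4 and Cd5l reached 10 UMIs through cluster 27 alone. The log2 ratio was 5.63 [5.08 to 6.25] for C1qa, 5.28 [4.88 to 5.70] for C1qb and 6.03 [5.51 to 6.59] for C1qc. Vsig4 and Timd4 had no UMI in the WT cells of cluster 15, so they were at least 87.5-fold and at least 136-fold higher, against a floor of 3 counts. Cd5l had 2 UMIs there, and its log2 ratio was 7.77 [5.88 to 10.8]. Adgre1 differed by 4.26 [3.73 to 4.83] and Apoe by 4.52 [4.38 to 4.66] on the log2 scale. Csf1r was the member that stayed within 2-fold, at 0.59 [0.30 to 0.87], since cluster 15 expressed it too. Another scaling of the libraries (trimmed mean of M-values, TMM) set the ratios of this comparison 0.18 higher on the log2 scale, which left the count of 8 as it was. Without the 3 cells with the most UMIs of each gene in either cluster, the log2 ratios of C1qa, C1qb and C1qc were 8.44, 6.94 and 8.18, and the lower bound of Vsig4 was 5.0 in place of 6.45. Few C1q UMIs were then left in cluster 15, so the higher C1q ratios do not measure a larger difference. Thinned to 1000 UMIs a cell, the lower bounds were 4.52 for Vsig4 and 5.10 for Timd4 (7.08 unthinned). Such bounds are set by the floor and must drop as UMIs are taken away, so they do not measure a change in size.

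Of 28 other complement genes 13 had enough counts, of which 8 were 2-fold or more higher in cluster 27 than in cluster 15, 2 lower and 3 within 2-fold. Their median log2 ratio was 1.98 against -0.33 over all genes, of which 9.39% were higher and 25.4% lower, and some, such as C4b, reached 10 UMIs through cluster 27 alone. C4b, the complement component cleaved after C1q binds, stood at 5354 CPM against 2.94 CPM (832 against 2 UMIs), a log2 ratio of 10.83 [8.97 to 13.9]. Properdin (Cfp) stood at 2117 against 215 CPM, and the chains of complement receptor 3, Itgam and Itgb2, at 2419 against 299 CPM and 1905 against 871 CPM. Itgax, the CD11c chain of complement receptor 4, went the other way, with 6.43 CPM (1 UMI) against 343 CPM.

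Of 22 other Kupffer and resident macrophage genes, 17 had enough counts, and 9 were higher and 3 lower (median log2 ratio 1.11). The scavenger receptor Msr1 stood at 682 against 58.9 CPM, the ficolin gene Fcna at 579 against 1.47 CPM (90 against 1 UMI) and the metal transporter Slc11a1 at 219 against 102 CPM. Id3, a factor known for its role in Kupffer cell identity, was lower, with 3 UMIs (19.3 CPM) against 144 (212 CPM). Of 18 lipid handling genes, 14 had enough counts, 9 were higher and 2 lower (median 1.34). Pltp, which transfers phospholipids between lipoproteins, stood at 952 against 50.0 CPM, the tetraspanin Cd9 at 579 against 149 CPM, the cholesterol-binding Npc2 at 1030 against 428 CPM and lipoprotein lipase (Lpl) at 347 against 157 CPM, while Lgals3 was lower at 148 against 677 CPM. Of 12 genes of the CSF1 receptor axis and the myeloid factors with enough counts 2 were higher and 5 lower, and their median of -0.21 was close to the -0.33 of all genes, of which 9.39% were higher and 25.4% lower. Spi1, which encodes PU.1, stood at 277 against 611 CPM, Klf4 at 193 against 491 CPM, Irf8 at 51.5 against 322 CPM and Csf2rb at 154 against 321 CPM.

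**Figure D3:**
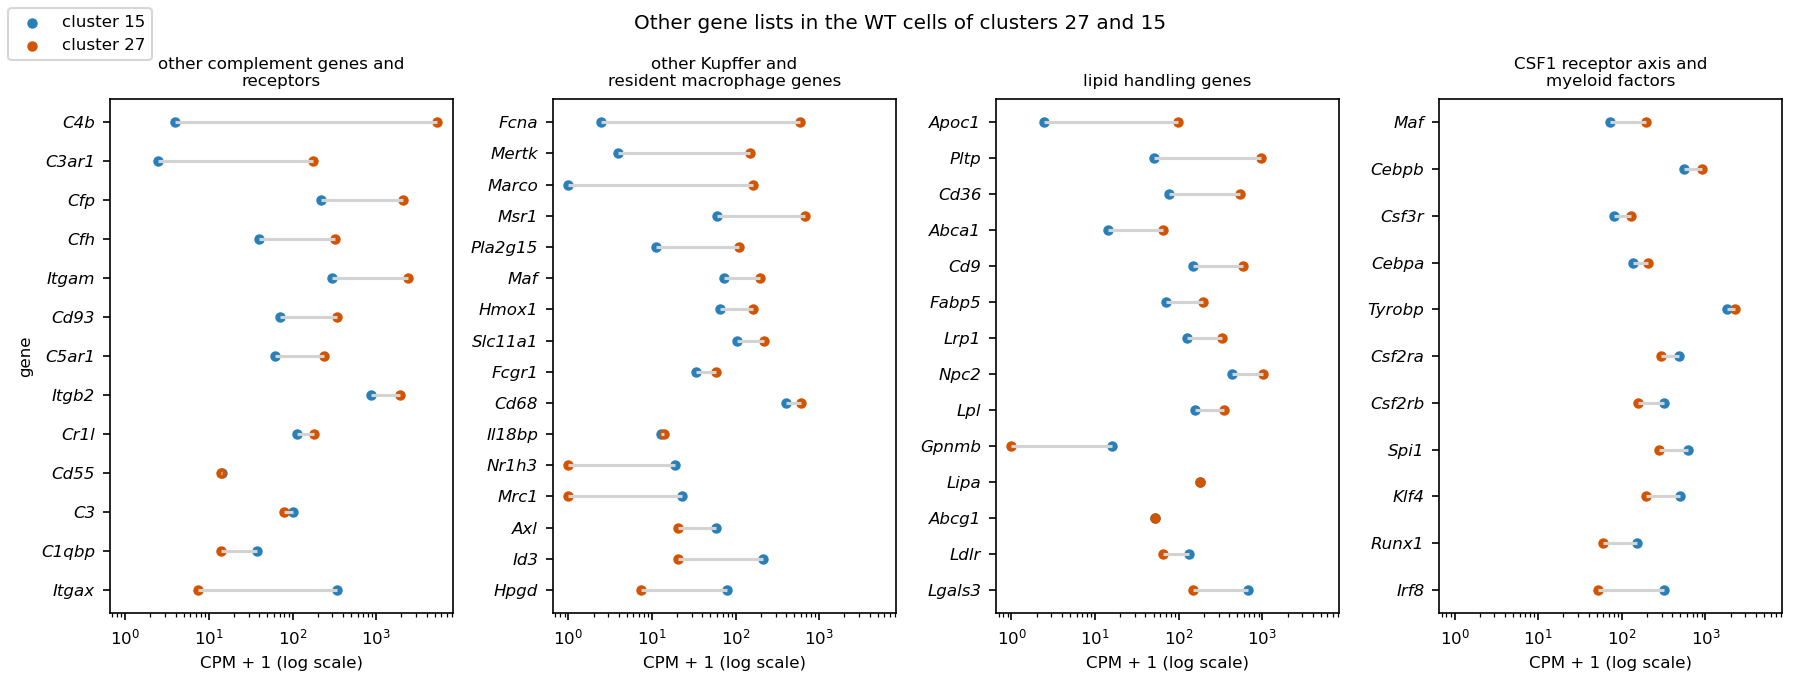
Levels of other listed genes with at least 10 UMIs, as CPM + 1 on a log axis, in the WT cells of cluster 27 (orange) and cluster 15 (blue), with 1 gene a row and 1 panel a list. C4b shows the widest gap among complement genes (5354 against 2.94 CPM), Itgax and Id3 are lower in cluster 27, and the myeloid factors in the right panel lie on both sides.

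Some markers of other cells moved with the members in cluster 27. Classical monocyte markers summed to 41458 CPM (9 of the 9 listed in the table had a UMI), nearly all of it lysozyme (Lyz2, 34129 CPM) and fibronectin (Fn1, 7033 CPM), while Ly6c2 and Ccr2 had 6 and 5 UMIs. Hepatocyte markers summed to 2033 CPM, of which transferrin (Trf) made up 2001 CPM and albumin 32.2 CPM, with Apoa1 and Apoa2 at 0. Markers of sinusoidal endothelium were at 0. The shared dendritic markers Flt3 and Zbtb46 were at 0 as well, while type 1 dendritic markers summed to 61 UMIs (393 CPM, 47 of them Cd24a, with Xcr1 and Clec9a at 0) and type 2 markers to 30 UMIs (193 CPM, led by Sirpa with 14 and Clec10a with 12). Among genes picked after their values were seen, Gata6, a transcription factor known from macrophages of the peritoneal cavity, had 25 UMIs in 11 of the 23 cells (161 CPM) and 6 UMIs in the other 7259 WT cells. Cxcl13, a B cell chemokine, had 342 UMIs in 11 cells (2201 CPM) against 2 UMIs elsewhere. Prg4 stood at 8063 CPM, Alox15 at 6737 CPM and Saa3 at 9710 CPM, against 3.35, 3.35 and 4.90 CPM in all other WT cells. Clec4f, the member most closely tied to Kupffer cells, was at 0, so the cells are called by their cluster number here, and their tissue of origin was not tested.

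Across the 50 profiles of a cluster and a genotype with at least 20 cells, the genes whose levels, as log2(CPM + 1), most resembled those of the summed C1q chains were Pf4 (Pearson r 0.84), Saa3 (0.83), Cxcl13 (0.79), Fn1 (0.73) and C4b (0.69). The same 5 led for the sum of Clec4f, Vsig4, Timd4 and Cd5l, with r from 0.76 to 0.89. Clec4f, listed for WT cells alone and with 1 UMI there, adds almost nothing to that sum. In the filtered table the C1q chains, Vsig4, Timd4 and Cd5l are at 0 in every TG cell. The TG profiles thus add no spread to either sum. These values are descriptive, since profiles of a genotype share a library and cluster 27 is the 1 high point of both sums. Over the 25 WT profiles alone, 3 of the 5 stayed among the first 5 for C1q and all 5 for the other sum.

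Surface proteins gave a readout that the choice of genes had not used. In cluster 27 CD9 took 11.4% of antibody counts (median centred log-ratio 2.86), against 3.90% in WT cells (1.38) and 7.37% in TG cells (2.06) of cluster 15. CD16/32, the low-affinity Fc receptors, had a median of 2.53 in cluster 27, 2.13 in WT and 2.58 in TG cells of cluster 15, and 0.48 in WT T cells. The median CD16/32 count per cell was 255 in cluster 27, against 41 in WT and 92 in TG cells of cluster 15. CD172a (SIRPα) had a lower median centred log-ratio in cluster 27 (1.81) than in cluster 15 (2.42 in WT, 2.99 in TG cells). Its median count per cell was not lower, at 130 against 54 in WT and 124 in TG cells of cluster 15. The median antibody total per cell was higher in cluster 27 (3733 against 1037 and 1424). Neither similar CD16/32 nor less CD172a per cell can therefore be read from the ratios. CD11c was low in cluster 27, with a median of 0.33 and 0.407% of the counts. It was 1.70 in WT and 1.49 in TG cells of cluster 15 and 2.60 in WT cells of cluster 22. The Itgax transcript was also lower in cluster 27 (6.43 CPM) than in cluster 15, where WT (343 CPM) and TG cells (364 CPM) stood in the other order. Ly-6G gave 16 counts over all cells and could not be used to check the neutrophil genes of cluster 5.

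No TG cell fell in cluster 27, which allows a share of up to 0.0646% of the 4647 TG cells, counting error only. In the filtered table C1qa, C1qb, C1qc, Vsig4, Timd4 and Cd5l were at 0 in every TG cell. The filter that left 630 genes at 0 in all TG cells is not described in the sources used here, and it also took out counts, since the library file of the same TG cells held 2 UMIs of C1qa (2 cells), 15 of C1qb (9 cells), 13 of C1qc (9 cells), 1 of Vsig4, 10 of Timd4 (4 cells) and 2 of Cd5l (2 cells). Of the 4647 TG cells 18 had any C1q UMI, the highest had 7, and 1 had all 3 chains. TG cells thus held traces of these 6 transcripts and no cell with 10 or more C1q UMIs, of which WT mice had 21.

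Cluster 15 could be compared between genotypes, since it made up 1.92% [1.54 to 2.35] of TG cells and 2.17% [1.85 to 2.53] of WT cells, with medians of 4481 and 4294 UMIs per cell and lowest values of 1558 and 1079. None of the 3 members with enough counts in the filtered table differed by 2-fold, against 6.96% of 8465 genes higher and 6.3% lower in TG cells. Csf1r was found in 80 of 89 TG cells and 100 of 158 WT cells, at 861 CPM [777 to 952] and 596 CPM [539 to 657], a log2 ratio of 0.53 [0.33 to 0.74]. With each cell thinned to 1000 UMIs the shares with Csf1r were 55.1% and 36.1%, against 1.78% of TG and 0.456% of WT T cells (median 3726 and 2777 UMIs before thinning). Csf1r was also higher in TG than in WT T cells, which are not known to express it (15.7 against 5.51 CPM), and the part of free RNA in the ratio was not tested. Adgre1 did not differ beyond counting error, at 54.3 CPM [34.8 to 80.7] and 53.0 CPM [37.1 to 73.3], with an interval of the log2 ratio from -0.77 to 0.82. Apoe stood at 409 CPM [352 to 473] in TG (37 of 89 cells, up to 21 UMIs) and 768 CPM [704 to 837] in WT cells (61 of 158, up to 60 UMIs), a log2 ratio of -0.91 [-1.16 to -0.66]. Without the 3 cells with the most Apoe the log2 ratio was -1.04, past 2-fold.

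The monocyte and dendritic markers within cluster 15 differed between the genotypes at the same time. Ace, known from patrolling monocytes, measured 651 CPM in TG cells and 256 CPM in WT cells, Cd209a, known from monocyte-derived and type 2 dendritic cells, at 326 and 578 CPM, Lyz2 at 2225 and 4204 CPM and Chil3 at 40.7 and 266 CPM, whereas Cx3cr1 (267 and 263 CPM) and Ly6c2 (963 and 1018 CPM) were close. Whether another mix of monocytes in the cluster accounts for the ratios of Csf1r and Apoe was not tested. T lineage genes summed to 653 CPM in TG and 316 CPM in WT cells and NK genes to 341 and 55.9 CPM (151 and 38 UMIs). The other way went B lineage genes, at 113 and 265 CPM (50 and 180 UMIs), and neutrophil genes, at 470 and 974 CPM. At least 2 UMIs of B or T lineage genes were found in 31 of the 89 TG cells and 30 of the 158 WT cells, and leaving these out moved none of the 3 members past 2-fold. The part of NK and neutrophil transcripts was not tested.

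C1q in cluster 15 lay in few cells. Among 158 WT cells 6 had C1q, with 37, 36, 18, 17, 8 and 1 UMIs, and 4 of them had all 3 chains. Among 89 TG cells 3 had C1q, with 7, 6 and 1 UMIs. In the library counts C1qa had 1 UMI in TG and 28 in WT cells (log2 ratio -4.19, interval -9.54 to -1.59), C1qb 8 and 57 (-2.21, -3.49 to -1.14) and C1qc 5 and 32 (-2.06, -3.78 to -0.69). The 2 WT cells with the most C1q held 73 of the 117 UMIs, so these ratios rest on a handful of cells. The WT cell with 36 C1q UMIs also held 60 Apoe UMIs, the most of any cell in the cluster. Timd4 had 7 UMIs in 2 TG cells and none in WT cells, and Cd5l 2 UMIs in 1 WT cell.

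Of the other lists in cluster 15, no myeloid factor of 13 with enough counts differed by 2-fold between TG and WT cells (median log2 ratio -0.16, all genes 0.03, with 6.96% of all genes higher and 6.3% lower). Of 14 Kupffer and macrophage genes 2 were lower in TG cells, Msr1 (15.8 against 58.9 CPM) and the mannose receptor Mrc1 (0 against 15 UMIs). Of 11 complement genes 3 were lower: the C5a receptor C5ar1 (11.3 against 60.3 CPM), Cd93 (31.7 against 70.6 CPM) and Cd55 (2 against 9 UMIs, an interval that includes no change). Of 13 lipid handling genes the fatty acid receptor Cd36 was higher in TG cells (310 against 76.5 CPM, log2 ratio 2.02 [1.55 to 2.51]). Lpl was lower (56.5 against 157 CPM, -1.48 [-2.17 to -0.84]), as were Abca1 and Gpnmb, both with intervals that include no change.

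If all cells named Macro are summed, Adgre1 measured 40.8 CPM in TG cells and 139 CPM in WT cells and Apoe at 297 and 2335 CPM (log2 ratios -1.76 and -2.97), while Csf1r stood at 629 and 398 CPM. The 23 cells of cluster 27 are in the WT sum and have no counterpart in the TG sum. The class made up 2.35% of TG and 3.58% of WT cells.

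**Figure D4:**
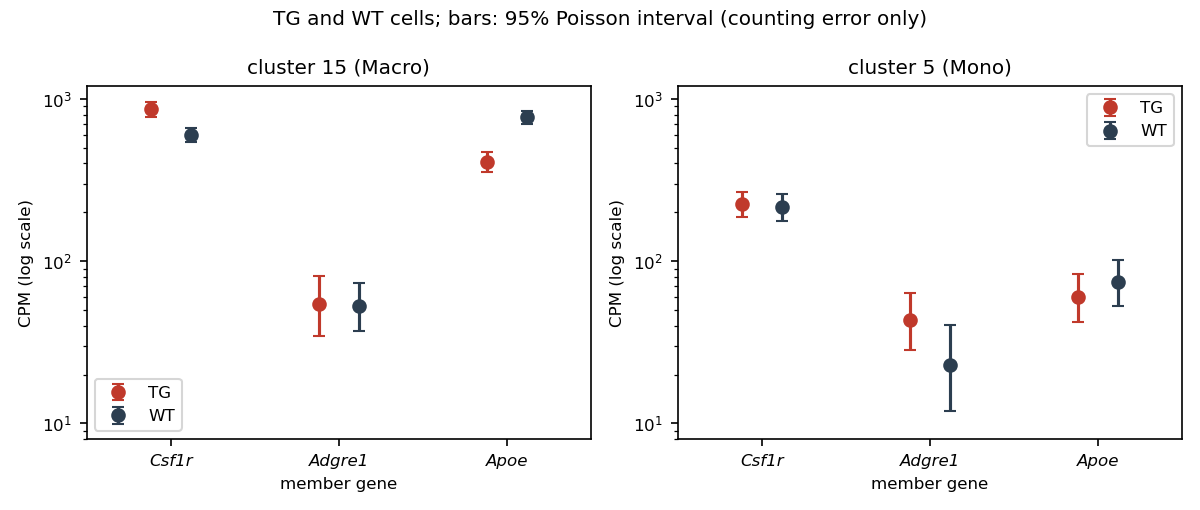
CPM on a log axis of the 3 members with enough counts in both genotypes, in cluster 15 (left) and cluster 5 (right), with points for the summed TG cells (red) and WT cells (dark) and bars for the 95% Poisson interval of the count. In cluster 15 Csf1r is higher in TG cells (861 against 596 CPM) and Apoe lower (409 against 768 CPM), and in cluster 5 all 3 pairs of intervals overlap.

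In cluster 5, Csf1r measured 224 CPM [188 to 265] in TG cells and 214 CPM [176 to 258] in WT cells, a log2 ratio of 0.06 [-0.31 to 0.44]. Adgre1 stood at 43.5 and 23.0 CPM (0.92 [-0.12 to 2.04]) and Apoe at 60.2 and 74.6 CPM (-0.31 [-1.01 to 0.38]). None of these 3 reached 2-fold, against 7.25% of 6713 genes higher and 8.61% lower. C1qa, C1qb, Timd4 and Cd5l had no UMI in either genotype, C1qc had 2 UMIs in WT and Vsig4 1 in TG cells. Of the other lists, Il18bp (68.5 against 11.5 CPM) and C1rl (25.1 against 3.83 CPM) were higher, and Maf (21.7 against 65.1 CPM) and Lipa (68.5 against 147 CPM) lower in TG cells.

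Set against cluster 5, cluster 15 had more Csf1r and Apoe in both genotypes. The log2 ratio was 1.94 [1.66 to 2.24] in TG and 1.48 [1.17 to 1.79] in WT cells for Csf1r, and 2.77 [2.24 to 3.32] and 3.36 [2.89 to 3.87] for Apoe. Adgre1 was within 2-fold in TG cells (0.32 [-0.54 to 1.18]) and above it in WT cells (1.21 [0.23 to 2.28]), intervals that overlap. In WT cells C1qa was at least 7.18-fold and C1qb at least 14.6-fold higher, and C1qc differed by 3.62 [1.65 to 6.73] on the log2 scale. These values rested on 4 to 6 of 158 cells. Without the 3 top cells of each gene, C1qa had 3 UMIs against none. The lower bounds of C1qb and C1qc were then 1.9 and 0.62 on the log2 scale. For C1qc the 2 UMIs of cluster 5 lay in cells left out, so its value became a bound set by the floor. By these values 4 of the 6 members were past 2-fold, but the bounds of C1qa and C1qc do not place them within it. In all, 2 of 3 members in TG and 6 of 6 in WT cells were 2-fold or more higher, where 45% of 7768 genes and 41.3% of 8298 genes were as well. The counts of the genotypes cannot be compared, because the C1q chains reached 10 UMIs in WT cells through cluster 15 alone and are at 0 in TG cells of the filtered table. TMM scaling lowered every ratio by 0.78 in TG and 0.53 in WT cells, which put Csf1r at 1.16 and 0.94. The factor Klf4 was higher in cluster 15 (418 against 26.7 CPM in TG, 491 against 34.4 CPM in WT cells). Csf3r, the neutrophil growth factor receptor, and Slc40a1, the iron exporter, were higher in cluster 5 (Csf3r 2862 against 58.8 CPM in TG, 2960 against 79.5 CPM in WT cells).

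Cluster 22 held little of any member. Timd4 had 11 UMIs in 4 of 80 WT cells (19.5 CPM, up to 6 in a cell) and none in 20 TG cells. Csf1r measured 23.6 CPM in TG cells (4 UMIs) and 23.0 CPM in WT cells (13 UMIs). Adgre1 had 1 UMI in TG and none in WT cells, Apoe 1 and 10 UMIs, and the C1q chains, Vsig4 and Cd5l none.

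Among profiles of at least 20 cells, Csf1r was highest in cluster 27 and in the TG cells of cluster 15, whose intervals overlap (752 to 1056 and 777 to 952 CPM), followed by the WT cells of cluster 15 and then by cluster 5, whose TG and WT intervals overlap. The cells named Neu followed in TG mice (74.3 CPM [48.1 to 110], 25 UMIs in 54 cells). Adgre1 went from 1017 CPM in cluster 27 to between 23.0 and 54.3 CPM in clusters 15 and 5, where neighbouring intervals overlap. Basophils of TG mice held 5 Adgre1 UMIs in 45 cells (31.8 CPM). For Apoe the order was cluster 27, the WT and then the TG cells of cluster 15, and immature B cells of WT mice (230 CPM [202 to 262]), with no overlap between neighbouring intervals. Timd4 followed its 598 CPM in cluster 27 with 19.5 CPM in WT cells of cluster 22 and 15.8 CPM in TG cells of cluster 15, whose intervals overlap.

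Among lymphocytes, Apoe and Csf1r were read in most clusters. Apoe measured 98.9 CPM [90.0 to 108] in TG B cells and 164 CPM [152 to 176] in WT B cells, against 7.63 and 9.29 CPM in T cells and 8.32 and 23.7 CPM in NK cells. B cells were above T cells of the same library in both genotypes. Immature B cells (cluster 10) held 106 CPM in TG (130 UMIs in 44 of 193 cells) and 230 CPM in WT mice (234 UMIs in 72 of 202 cells), and mature B cells (cluster 1) 101 and 159 CPM. Csf1r measured 15.7 CPM [13.3 to 18.5] in TG T cells and 5.51 CPM [4.30 to 6.97] in WT T cells, and the same order held in B cells (21.2 and 8.03 CPM) and NK cells (14.9 and 6.85 CPM). Over each whole library, cells without a name included, Csf1r averaged 0.417 UMIs per cell in the pool with TG cells and 0.173 in the pool with WT cells. Without lymphocytes that held 2 or more UMIs of a member, Apoe was 13.6 CPM in place of 33.6 CPM in TG lymphocytes and 17.8 CPM in place of 48.2 CPM in WT lymphocytes. Apoe is itself a member, so a fall is built into this choice of cells and tells nothing of the source of the transcript. Adgre1 had 26 UMIs in 15 of 193 immature B cells of TG mice (21.3 CPM) and 6 in 4 of 202 in WT mice (5.90 CPM), and 5 and 3 UMIs in all T cells. The C1q chains were found in 34 WT cells outside clusters 15 and 27, each with 1 UMI.

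The cells without a genotype name held the members as well. In the pool with WT cells they held 304 UMIs of C1qa, 503 of C1qb and 520 of C1qc, 36 of Vsig4, 127 of Timd4 and 166 of Cd5l. In the pool with TG cells they held 33, 130 and 53 UMIs of the C1q chains, none of Vsig4, 3 of Timd4 and 15 of Cd5l. Cells with at least 10 C1q UMIs numbered 22 among the unnamed cells of the first of these pools (10 to 167 UMIs, median 40.5) and 7 in the second (11 to 47, median 21), which is 0.131% and 0.130% of the unnamed cells. Among named cells they numbered 21 in WT mice, 17 of them in cluster 27 (11 to 143, median 70) and 4 in cluster 15 (17 to 37, median 27), and 0 of 4647 in TG mice. The 7 cells held no Vsig4 or Timd4, 1 of them held Cd5l, and 3 held Apoe, whereas all 22 held Apoe, 19 Timd4, 19 Cd5l and 7 Vsig4. The chain mix was 15.3% C1qa [10.8 to 20.8] and 60.2% C1qb [53.3 to 66.8] in the unnamed cells beside TG cells. In those beside WT cells it was 22.9% [20.7 to 25.3] and 37.9% [35.3 to 40.6]. These intervals treat each UMI as separate and leave out the spread between cells. Beside TG cells there were 216 C1q UMIs, and the 7 cells held 11 to 47 each, so few cells set that mix.

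Clec4f was read in these unnamed cells and hardly elsewhere. It had 69 UMIs in 15 unnamed cells of the pool with WT cells and 1 UMI in the named WT cells, in an immature B cell. Of the 69 UMIs, 54 lay in 3 cells with 28, 13 and 13 UMIs. These 3 cells also held 44, 28 and 12 C1q UMIs, 8, 9 and 7 Cd5l UMIs, 1 Timd4 UMI each and 41, 24 and 23 Apoe UMIs, and 11 of the other 12 cells held 1 Clec4f UMI. The unnamed cells can be of P40-/-IL-2Ra-/- mice or WT cells that the filter removed, and these cannot be told apart here.

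**Figure D5:**
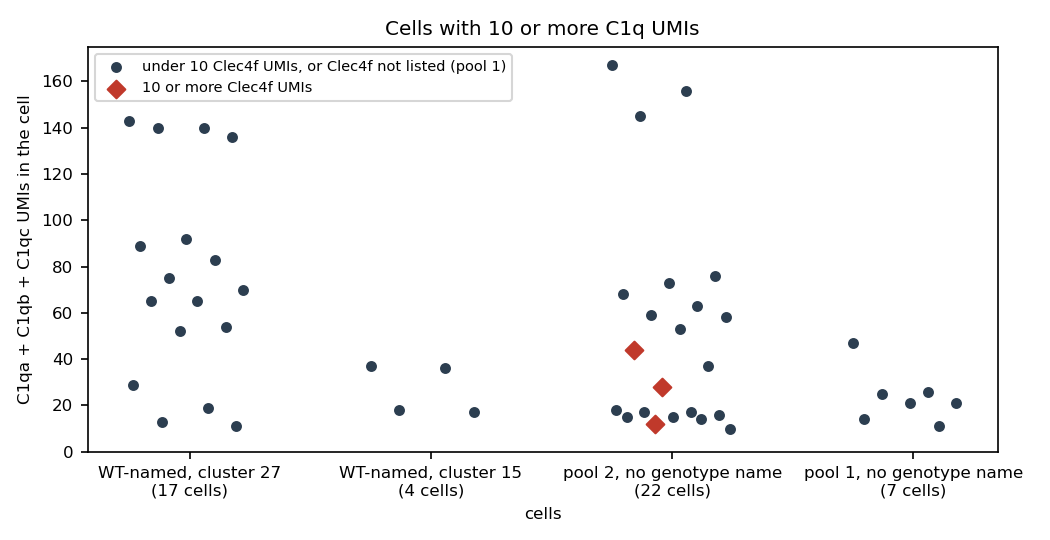
C1q UMIs (the 3 chains summed, vertical axis) of each cell with at least 10 of them, in columns for the named WT cells of clusters 27 and 15 and for the cells without a genotype name of pool 2 (with WT cells) and pool 1 (with TG cells), spread sideways to separate points. Red diamonds mark the 3 cells with at least 10 Clec4f UMIs, which hold 44, 28 and 12 C1q UMIs and all lie in pool 2, and no named TG cell reaches 10.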

How the data were processed

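Liver immune cells were captured in 2 libraries on the BD Rhapsody system. Per the labels, the study's methods and the file headers, the authors aligned reads to mm10 with STAR in the BD pipeline (1.9 in the headers), and the deposited library files hold counts of UMIs per gene and cell. The authors' filtered table of counts, antibody counts and antibody values on the natural log scale (centred log-ratios, of which 0 differed from a recalculation by over 1e-06), and their cell metadata with a percent of mitochondrial UMIs, genotype, class and cluster, were used as deposited. How cells were filtered is not given in the sources used here.

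Groups were read from the labels and the metadata names. Member counts came from the library files for the named cells, matched by cell number, and all other genes and the totals from the filtered table; the counts of members called 2-fold (at least 10 UMIs over both profiles) used the filtered table. CPM of summed cells carry exact Poisson intervals, ratios exact conditional binomial intervals and shares Clopper-Pearson intervals, at 95%. A 0 was set to a floor of 3 counts. No test was run. Comparisons planned on the class names were made by cluster (15 for Macro, 5 for Mono), because markers split the classes, and cluster 27 against 15 was added after seeing the data. The members and lists were chosen with earlier results of these data known. The genes named are the members, up to 5 genes of a list past 2-fold with the most UMIs, the 10 leading genes of each myeloid cluster, the 5 genes most like each sum (at least 200 UMIs), cell type markers, and those said to be picked after their values were seen. Alternatives were TMM scaling (edgeR 4.0.16), equal weight per cell, totals that leave out mitochondrial and ribosomal genes, thinning to 1000 UMIs, no cells with lineage UMIs, no top 3 cells, no minimum count and library counts. The ratio computation was tested on simulated data. Python 3.11.15, numpy 2.4.6, scipy 1.17.1, pandas 2.3.3 and matplotlib 3.10.9 were used. Per-sample columns left unused numbered 0. Sequences are those of RefSeq. An item counted in the lists is not reported here by name.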

Additional observations from a re-analysis of the deposited data

Results flagged for a closer look

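Members were found in cells that the genotype comparisons do not use, those without a genotype name in the deposited metadata. Clec4f, absent from cluster 27, had 69 UMIs in such cells of the pool with WT cells. The C1q chains had 1327 UMIs there, and 22 cells (0.131%) held 10 or more. In the pool with TG cells the unnamed cells held 216 C1q UMIs, and 7 of them (0.130%) had 10 or more, while no named TG cell did. All 5 values were picked out because they lie above the floor of 3 counts set for a 0, in data outside the comparisons. The genotype of these cells was not given, and their part in the difference between TG and WT mice was not tested.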

How the results depend on the processing

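No paired analysis was possible because 1 library stood for each genotype, and leaving out a replicate could not be run for the same reason. In cluster 15, where 0 of 3 members differed by 2-fold between TG and WT cells, 1 did without the 3 cells with the most UMIs of each gene (Apoe), 3 of 6 did with library counts (the C1q chains, set to 0 in TG cells by the filter) and 2 did over all cells named Macro (Adgre1 and Apoe, where cluster 27 enters the WT sum alone). In cluster 5, 1 of 3 did with TMM scaling (Adgre1). The Macro share was 3.22% in TG and 4.67% in WT cells outside the B cell classes, and 1.55% and 2.86% without Macro and Mono cells carrying 2 or more B or T lineage UMIs. The Mono share was 6.02% and 4.62% outside the B cell classes, and 3.53% in TG cells without those cells. Thinning left 1 member in at least 10% of the TG cells of cluster 5 in place of 2. Over WT profiles alone, 3 of the 5 genes most like C1q were shared, and TG profiles alone gave no value because those members are at 0. In WT cells of cluster 15 against cluster 5, the lower bound of C1qa was -0.40 in place of 2.84 on the log2 scale without its 3 top cells. The 3 UMIs then left stood against none in cluster 5, so the bound dropped as UMIs were taken away and the direction did not turn. The 6 members called there became 4 with TMM scaling, 4 without top cells (where C1qa and C1qc were bounds set by the floor), 5 with thinning and 5 over the class. Of the recomputed counts and shares 48 stayed close to the reported value and 13 moved. Of the single-member values 167 stayed within the interval of the reported value, 47 moved beyond it and 1 is the bound of C1qa given above. Among these 167 and 47 values, 10 changed sign around reported ratios within 2-fold. For Adgre1 in cluster 15 between genotypes they were -0.02 with TMM scaling, -0.12 with equal weight, -0.05 thinned and -1.76 over the class. For Csf1r in cluster 5 they were -0.28 thinned, -0.14 without cells with lineage UMIs and -0.02 without top cells. The others were Apoe in cluster 5 (0.53 thinned) and Adgre1 in TG cells of cluster 15 against 5 (-0.46 with TMM scaling, -0.09 over the class). The 8 members higher in cluster 27 than in cluster 15 remained 8 in number under all alternatives run, which were added after seeing the data. Of all 7807 genes 9.39% were higher there. The clusters were built from these counts, and Vsig4, Timd4 and Cd5l reached 10 UMIs through cluster 27 alone. Nothing is therefore read from the unchanged number. Depth limits Clec4f in cluster 27 to under 19.3 CPM and cluster 27 among TG cells to 0.0646% of cells.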
